A study of Homo sapiens with 9 samples.

Results

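The salt-inducible kinases SIK1, SIK2 and SIK3, their activating kinase STK11 (LKB1), the related kinase MARK2 and the class IIa histone deacetylases HDAC4, HDAC5, HDAC7 and HDAC9 were followed as a group of 9 genes of the 62700 genes in the annotation. The members were taken by gene symbol as the kinases and deacetylases that gate the activity of MEF2 transcription factors, a rule that uses no measured value, although earlier results of these data were known when they were chosen. All 9 passed the filter on low counts and were tested with 14436 genes. HAL-01, a leukemia cell line with the t(17;19) translocation and its TCF3::HLF fusion, was used throughout, and the cells of every group stably expressed Cas9GFP. The MEF2C-enhancer KO libraries came from cells given sgRNA_96 (3 libraries) or sgRNA_97 (3 libraries), and the control libraries from cells given the scrambled guide SCR1 (3 libraries), all on day 13. The guides arrived on a lentivirus, no clone was named, and the fraction of edited cells was not measured here, so each library is a bulk population in which fewer cells of a type and less RNA per cell cannot be told apart.

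Class IIa deacetylases bind MEF2 factors on chromatin and keep their target genes silent. When kinases such as the SIKs phosphorylate the deacetylases on conserved serines, 14-3-3 proteins hold them in the cytoplasm and MEF2 is released. LKB1 switches the SIKs and the MARKs on by phosphorylating a threonine in the activation loop, while protein kinase A switches the SIKs off, and in leukemia cells that depend on MEF2C this axis is known as a route by which MEF2C activity is sustained.

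The study lists a pair of designed guides against the HLF motif of the MEF2C enhancer. They are shown because the difference between their cells and the SCR1 cells is what every value below measures. The capitals mark the letters TTACATAA that both carry.
E.1: tagcaTTACATAAtacatgt
E.2: ttagcaTTACATAAtacatg
Each had 1 exact match in hg38, on the minus strand, at chr5:88825103-88825122 for E.1 with the PAM GGG and at chr5:88825104-88825123 for E.2 with the PAM TGG. The site lies within the annotated MEF2C gene and in 0 of its annotated exons, 58062 and 58061 bases downstream of the start of the representative (MANE) transcript. Which of them is sgRNA_96 and which is sgRNA_97 is not given in the sources used here.

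The sites through which the members act on each other are shown next, read from the hg38 genome along annotated coding sequences and written on the coding strand. In the kinases, the capitals mark the codon of the activation-loop threonine that LKB1 phosphorylates.
SIK1: gagcctctgtccACGtggtgtggg
SIK2: gaactgctggcaACAtggtgtggc
SIK3: cagctgctgaagACCtggtgtggc
MARK2: aacaagctggacACCttctgtggc
The codons encode residue 182 of SIK1 (chr21:43421312-43421335, minus strand), 175 of SIK2 (chr11:111700918-111700941, plus strand), 221 of SIK3 (chr11:116897262-116897285, minus strand) and 208 of MARK2 (chr11:63899952-63899975, plus strand). Over these 24 bases the SIKs shared 16 to 18 letters with each other and 13 to 16 with MARK2. In the deacetylases, the capitals mark the codon of the first conserved serine that binds 14-3-3 proteins once it is phosphorylated.
HDAC4: aggaaaacagctTCTgaaccgaat
HDAC5: cgcaaaacagccTCTgaacccaac
HDAC7: cgcaagacagtcTCTgagcccaac
HDAC9: cgaaaaactgccTCTgagcccaac
These windows are spliced and each spans an intron. They encode residue 246 of HDAC4 (chr2:239144701-239156661, minus strand), 259 of HDAC5 (chr17:44092514-44092685, minus strand), 194 of HDAC7 in transcript HDAC7-201 (chr12:47797129-47797393, minus strand) and 223 of HDAC9 in transcript HDAC9-232 (chr7:18594020-18629363, plus strand). HDAC5, HDAC7 and HDAC9 shared 20 or 21 of 24 letters with each other, and HDAC4 shared 16 to 19 with them. The windows are in exons far from the edited site, and what was measured for these genes is their RNA, not the phosphorylation of these residues or the protein.

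Total counts ranged from 15212462 to 29777361 per library, and TMM scaling factors from 0.990 to 1.01. Mitochondrial transcripts took 5.97 to 6.35% of the counts in SCR1 and 6.22 to 7.01% in KO libraries, 5 of 6 above every control, and the part of this in the differences below was not tested. Expression is given as CPM, the counts of a gene over the scaled library total, times 1000000, for comparing a gene between libraries, and as TPM, which also divides by transcript length, for comparing genes. All 10 markers of B cell leukemia in a fixed list were present, with a summed level of 4543 to 4751 TPM in SCR1 and 4595 to 4953 TPM in KO libraries. CD3D, CD3E, CD3G and CD5 of the T cell markers and all 4 erythroid markers were at 0 in every library. Myeloid markers summed to 13.1 to 16.4 TPM in SCR1 and 11.99 to 16.7 TPM in KO libraries, mostly CSF1R, and stromal markers to 5.11 to 6.79 and 4.501 to 6.39 TPM, mostly PDGFRB, so neither sum set the groups apart. MEF2C, the gene that the enhancer serves, stood at 560, 559 and 536 CPM in SCR1 replicates 1, 3 and 4. It stood at 495, 498 and 510 CPM with sgRNA_96 and at 553, 505 and 495 CPM with sgRNA_97, and the adjusted p of the KO difference was 0.0620. The labels number the replicates but do not say that they are separate cultures, so the p-values below measure the spread between these libraries, which may be technical.

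To place the members relative to each other, their levels per length were ordered in the control cells. STK11 stood highest, at 46.6 ± 3.92 TPM (SD, n = 3). HDAC7 at 39.1 ± 3.27 TPM and HDAC5 at 38.3 ± 3.60 TPM followed, and these neighbours had overlapping ranges. MARK2, which phosphorylates microtubule-associated proteins and class IIa deacetylases, had 24.6 ± 0.60 TPM. HDAC9 had 14.2 ± 2.73, SIK3 9.50 ± 0.62, SIK2 5.99 ± 0.15 and HDAC4 5.03 ± 0.06 TPM. SIK1 came last with 0.707 ± 0.660 TPM, a value without the reads that Salmon gave to the near-identical gene model SIK1B, described below. Apart from HDAC7 and HDAC5, no neighbours in this order overlapped over the 3 SCR1 libraries. SIK3 thus had the highest level per length of the SIKs with all transcripts of each gene counted. In SCR1 the SIK3 sum included transcripts not annotated as protein-coding, and the SIK2 sum did not. The main coding transcript, SIK3-204, had 5.402 ± 0.806 TPM in SCR1. Its range overlapped that of SIK2-201, the coding transcript of SIK2, at 5.99 ± 0.15 TPM. The order of SIK3 and SIK2 by summed coding transcripts was not tested. The 4 class IIa genes together held 96.6 ± 8.28 TPM in SCR1 (n = 3) and 98.6 ± 4.23 TPM in KO libraries (SD, n = 6), most of it HDAC7 and HDAC5.

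**Figure D1:**
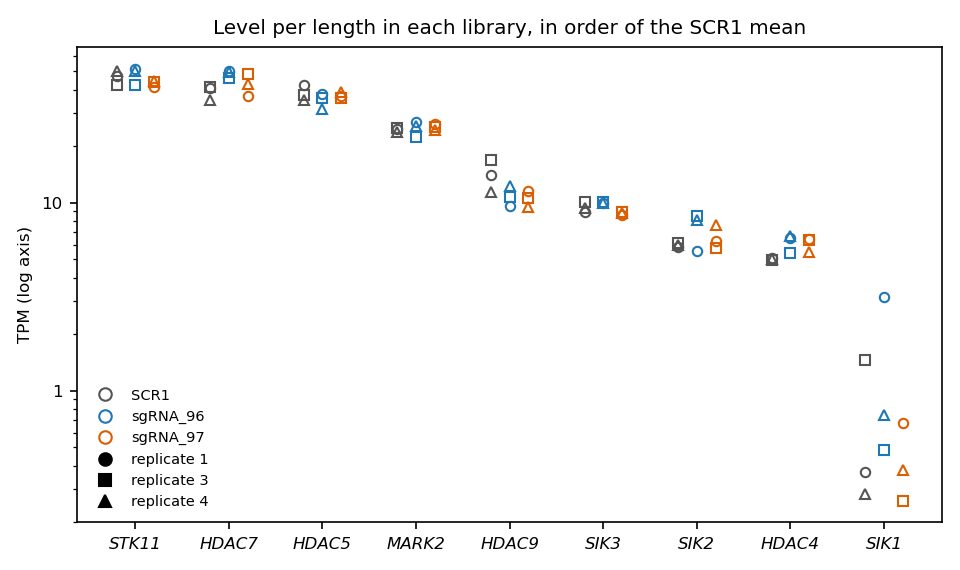
TPM of each of the 9 genes on a log axis, ordered by the SCR1 mean, with 1 point per library, colour for the guide and marker shape for the replicate number. STK11, HDAC7 and HDAC5 lie above 30 TPM in all libraries, and SIK1 lies lowest and is the most scattered, from 0.260 to 3.14 TPM.

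HDAC9 was the member whose RNA differed between MEF2C-enhancer KO and control cells. It encodes a class IIa deacetylase that binds MEF2 factors and represses their targets. Its level was 27.4% lower in the KO libraries, a log2 difference of -0.46, and it was lower with either guide. Of the 9 members it alone was past the threshold (an adjusted p under 0.05), a share of 11.1%, beside 20.7% of all genes tested (10.6% lower and 10.1% higher). The share of all genes called was 10.2% without SCR1 replicate 1 and 12.3% without SCR1 replicate 4, with HDAC9 the single member called each time, so 1 call among 9 members was near or below the background. The remaining 8 members had adjusted p-values from 0.139 to 0.999. Adjusted p-values are two-sided, from the quasi-likelihood fit in edgeR and adjusted by Benjamini-Hochberg over all features tested, except where another tool is named. The median log2 difference of the 9 members was -0.01, beside 0.00 over all genes.

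**Figure D2:**
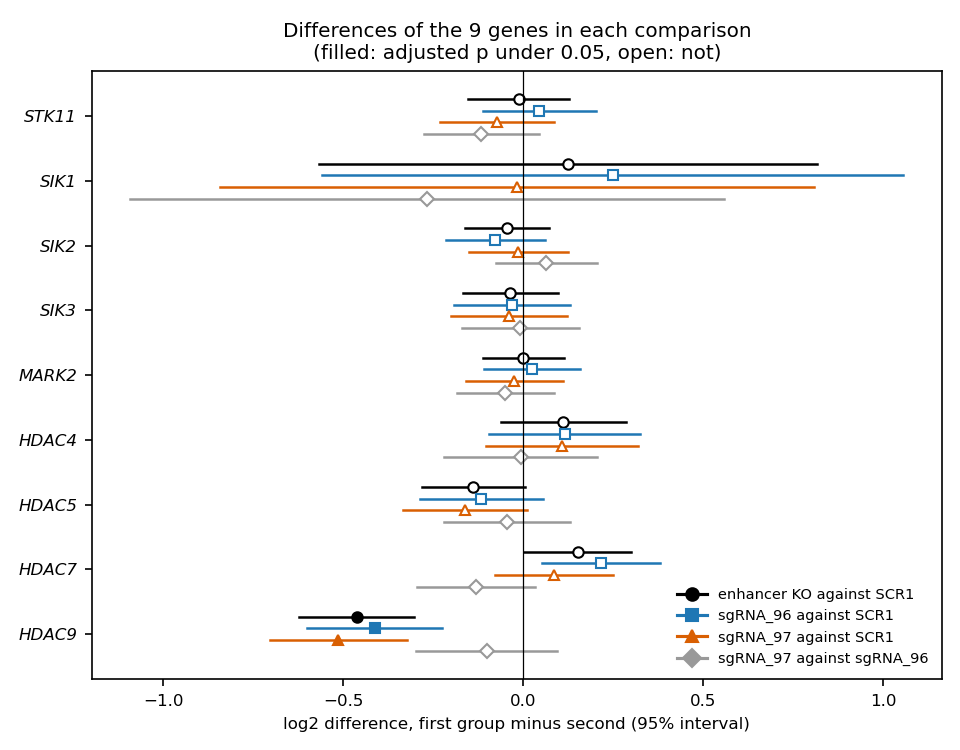
Log2 difference with its 95% interval for each of the 9 genes in each of the 4 comparisons, filled where the adjusted p is under 0.05. The KO and single-guide differences of HDAC9 are the only filled points, from -0.41 to -0.51, and each difference between the guides has an interval that includes 0.

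Among the kinases, STK11 was examined first, since all SIKs need it for activity. STK11 (ENSG00000118046.17, chr19:1177558-1228431, plus strand) had 69.6, 63.8 and 79.2 CPM in SCR1 replicates 1, 3 and 4. In the 6 KO libraries the lowest value was 65.2, the median 69.8 and the highest 77.9 CPM, all inside the control range. The log2 difference was -0.01 (95% interval -0.15 to 0.13, adjusted p = 0.921). STK11 acts in a complex with the pseudokinases STRADA and STRADB and the scaffolds CAB39 and CAB39L. Of those 4 genes, 0 were past the threshold by edgeR or DESeq2, beside 20.7% and 23.4% of all genes. None had an unadjusted p under 0.05, with log2 differences from -0.13 to -0.04 and adjusted p from 0.257 to 0.681.

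SIK3, the family member for which dependence in MEF2C-driven leukemia is known, showed no detectable difference. SIK3 (ENSG00000160584.17, chr11:116843402-117098437, minus strand) had 35.6, 36.5 and 36.6 CPM in SCR1. The KO libraries ran from 32.6 over a median of 34.9 to 39.4 CPM, on both sides of the controls. It differed by -0.04 on the log2 scale (95% interval -0.17 to 0.10, adjusted p = 0.737).

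SIK2 (ENSG00000170145.5, chr11:111602449-111730855, plus strand), which shares substrates with SIK3, had 43.5, 44.1 and 44.8 CPM in SCR1. The KO values were 40.6 at the lowest, 42.4 at the median and 46.4 at the highest, and 4 of the 6 lay below every control while sgRNA_97 replicate 1 lay above. The log2 difference was -0.05 (95% interval -0.16 to 0.07, adjusted p = 0.607). Per length the sign turned, to 0.17 on log2(TPM + 1) with an adjusted p of 0.472. This came with SIK2-202, a transcript without a defined coding sequence that Salmon placed at 0 TPM in 6 libraries, all SCR1 libraries among them. The coding transcript SIK2-201 had 5.99 ± 0.15 TPM in SCR1 (n = 3) and 5.80 ± 0.35 TPM in KO libraries (n = 6).

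SIK1 (ENSG00000142178.9, chr21:43414483-43427131, minus strand), the member whose transcription is induced by cAMP, was barely measurable under its own name. Its counts were 18 to 41 per library. A near-identical gene model, SIK1B, lies on the same chromosome (chr21:6111131-6123778), and the annotation types it as an artifact. The SIK1 and SIK1B transcripts of 4747 bases match at 4740 positions, with 7 mismatches and 0 gaps. Reads that fit both are divided by Salmon, and SIK1 received between 7.79 and 20% of their summed counts. SIK1 levels are therefore uncertain, and the sum of both gene models is the firmer value. It was 11.9, 11.7 and 11.5 CPM in SCR1, and in the KO libraries from 10.9 to 13.9 CPM. The log2 difference of the sum was 0.07 (adjusted p = 0.616). For SIK1 alone it was 0.12 with a wide 95% interval of -0.57 to 0.82 (adjusted p = 0.830), and for SIK1B alone 0.07 (adjusted p = 0.672).

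MARK2 (ENSG00000072518.23, chr11:63838928-63911020, plus strand) also showed no detectable difference. It had 61.9, 63.3 and 61.6 CPM in SCR1, and in KO libraries 58.5 at the lowest, 61.6 at the median and 68.3 at the highest. Its log2 difference was 0.00 (95% interval -0.11 to 0.11, adjusted p = 0.999). Of the 5 kinase genes, 0 were called in the 3 comparisons with SCR1 by edgeR or by DESeq2, and 0 had an unadjusted p under 0.05 in edgeR. Of all genes, edgeR called 20.7% in the KO comparison, 11.2% with sgRNA_96 and 15.1% with sgRNA_97. With so few genes, 0 calls do not set the kinases apart from that background.

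**Figure D3:**
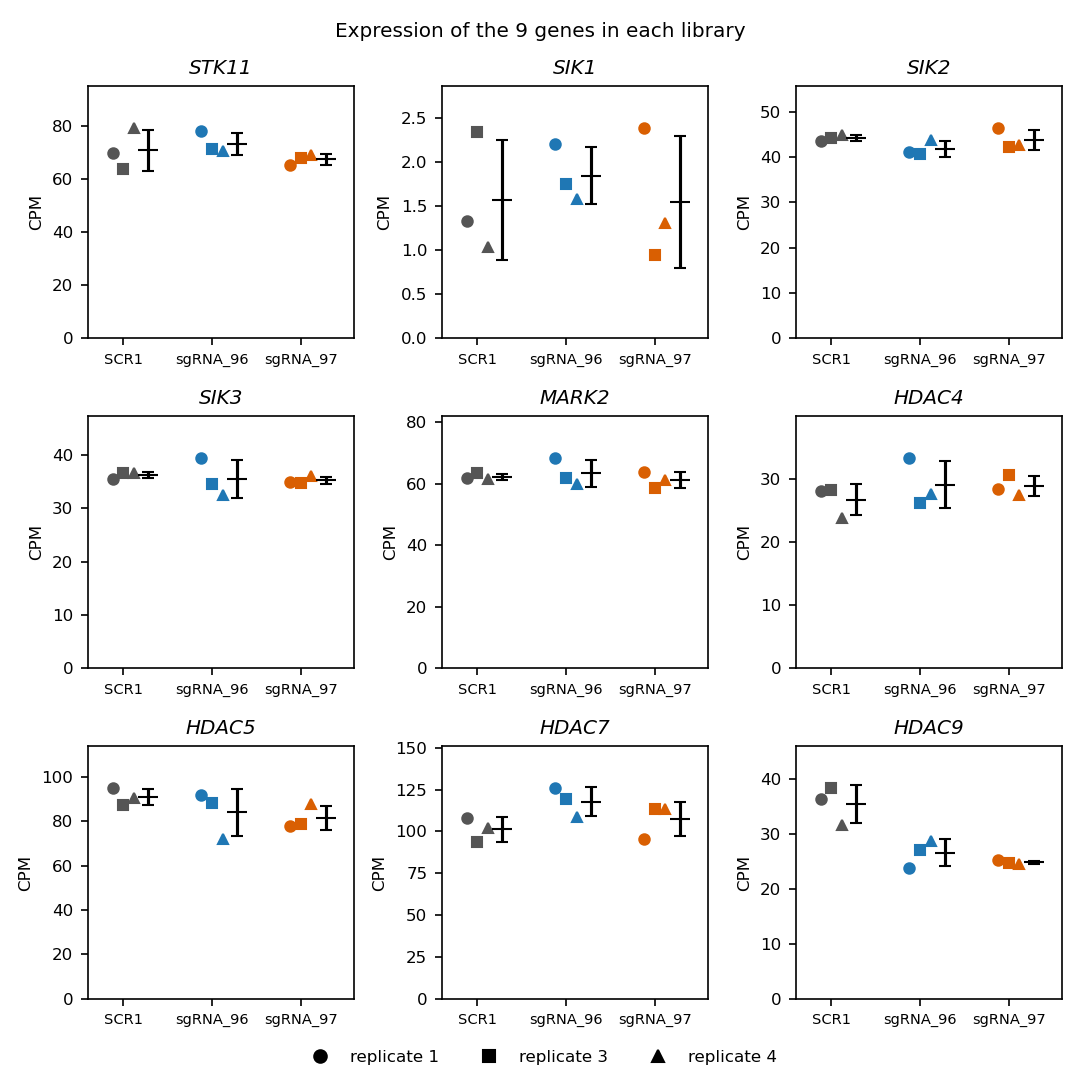
CPM of each of the 9 genes in each library, on axes that start at 0, with the replicate number as marker shape and the mean and SD of each group of 3 as a bar beside it. The 6 KO values of HDAC9, at most 28.6 CPM, lie below all SCR1 values, at least 31.6 CPM, and for each of the other 8 genes the groups overlap.

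Turning to the deacetylases, HDAC9 (ENSG00000048052.25, chr7:18086949-19002416, plus strand) had 36.4, 38.3 and 31.6 CPM in SCR1 replicates 1, 3 and 4. With sgRNA_96 it had 23.8, 27.1 and 28.6 CPM, and with sgRNA_97 25.2, 24.6 and 24.6 CPM. On the CPM scale every KO value lay below every control value. There HDAC9 was the single member without overlap, where 20.3% of all genes tested had none (10.2% with all KO values lower). The group levels were 35.4 ± 3.45 CPM (SD, n = 3) and 25.7 ± 1.84 CPM (SD, n = 6). The log2 difference was -0.46 (SE 0.08, 95% interval -0.62 to -0.30), and the adjusted p was 0.00052 in edgeR and 1.34e-06 in DESeq2. Taken singly, sgRNA_96 gave -0.41 (SE 0.09, adjusted p = 0.00759) and sgRNA_97 gave -0.51 (SE 0.09, adjusted p = 0.00161). With effective length as an offset to the counts both calls were lost (adjusted p = 0.130 and 0.0897), as they were on log2(TPM + 1) by limma (adjusted p = 0.232 and 0.158). These comparisons share the 3 SCR1 libraries, so they are not independent of each other. Of all genes, 11.2% were called with sgRNA_96 (5.41% lower and 5.78% higher) and 15.1% with sgRNA_97 (7.76% lower and 7.35% higher).

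Leaving out any of the 9 libraries kept the HDAC9 call, with log2 differences from -0.54 to -0.41 and adjusted p from 0.000382 to 0.00660. On the TPM scale the call was lost. There the SCR1 levels were 14.1, 16.9 and 11.5 TPM and the KO levels 9.53 to 12.2 TPM, so that 2 KO libraries lay above SCR1 replicate 4. The difference on log2(TPM + 1) was -0.36, with an adjusted p of 0.0853 by limma, and with effective length as an offset to the counts it was -0.40, with an adjusted p of 0.0352.

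The HDAC9 locus gives long and short proteins, and the short form known as MITR keeps the MEF2-binding part but has no deacetylase domain. Transcripts were therefore grouped by where their coding sequence ends. The short stop, taken as that of HDAC9-202, lies at position 18666524 of chromosome 7, and the 11 transcripts that end there held 49.4 to 74.0% of the HDAC9 TPM in each library. A further 8 transcripts, incomplete models such as HDAC9-207 among them, end before it and held 11.7 to 41.0%. The 5 transcripts whose coding sequence runs past the short stop held 2.91 to 6.30%, or 0.478 to 0.770 TPM, and 12 with no annotated coding sequence held the rest. In every library the transcripts that end at the short stop thus had a higher level than those that run past it.

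Library by library, transcripts that end at the short stop had 9.13, 11.0 and 8.49 TPM in SCR1 replicates 1, 3 and 4, 6.01, 7.34 and 8.06 TPM with sgRNA_96 and 5.72, 5.93 and 6.90 TPM with sgRNA_97. Every KO value of this class lay below every control value, at most 8.06 against at least 8.49 TPM. How often this holds for transcript classes or in TPM was not computed, and in TPM HDAC9 as a whole overlapped. For whole genes on the CPM scale, 10.2% of those tested had all KO values lower, HDAC9 among them. Transcripts that end before the short stop had 2.21 ± 1.24 TPM in SCR1, 2.57 ± 0.18 TPM with sgRNA_96 and 2.67 ± 1.82 TPM with sgRNA_97 (SD, n = 3 each). Transcripts past the short stop had 0.512 ± 0.046 TPM in SCR1, 0.632 ± 0.120 TPM with sgRNA_96 and 0.547 ± 0.043 TPM with sgRNA_97, and in both of these classes the groups overlap. These class sums were not tested, and they rest on how Salmon divided reads among transcripts that share exons. The most abundant transcripts were HDAC9-229 with 549 codons (25.9% of the gene) and HDAC9-202 with 590 codons (22.1%). HDAC9-229 had a log2 difference of -0.36 (SE 0.22, adjusted p = 0.739) and HDAC9-202 of -0.71 (SE 0.38, adjusted p = 0.641). HDAC9-207, annotated with 138 codons (15.7%), had 0.51 (SE 0.54, adjusted p = 0.961). None of them was past the threshold at the transcript level, where 0.633% of the 54988 transcripts tested were.

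**Figure D4:**
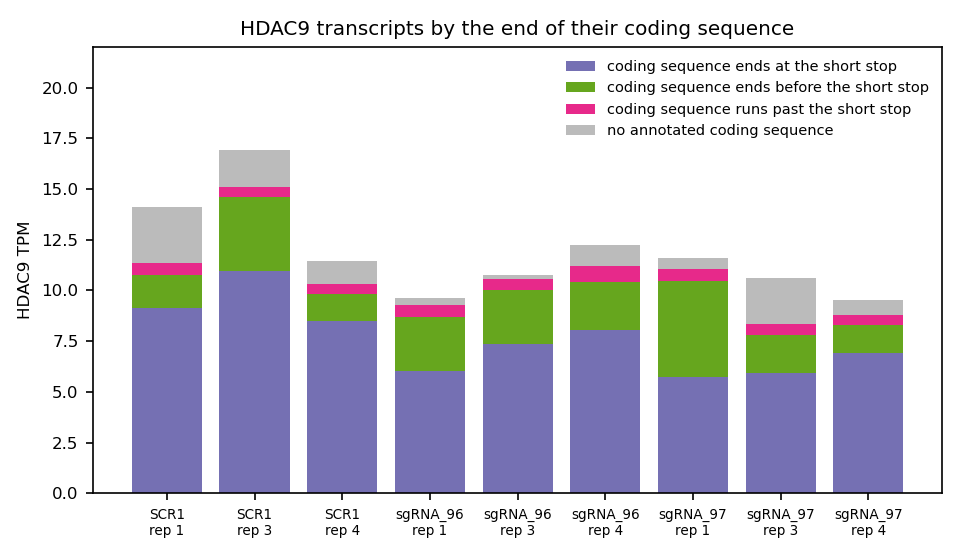
HDAC9 TPM in each library as stacked bars, split into transcripts whose coding sequence ends at the short stop, ends before it or runs past it, and transcripts with no annotated coding sequence. The class that ends at the short stop is the largest in every bar, from 5.72 to 11.0 TPM, and the class past it stays between 0.478 and 0.770 TPM.

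HDAC7, the class IIa member known as a MEF2 corepressor in B cell precursors, was higher in most KO libraries, but its difference was not past the threshold. HDAC7 (ENSG00000061273.18, chr12:47782722-47833132, minus strand) had 108, 93.4 and 102 CPM in SCR1. The KO values were 126, 119 and 108 CPM with sgRNA_96 and 95.4, 113 and 113 CPM with sgRNA_97, and 5 of 6 lay above every control. The log2 difference was 0.15 (SE 0.07, 95% interval 0.00 to 0.30, adjusted p = 0.139). Without sgRNA_97 replicate 1, the library at 95.4 CPM, it was 0.19 and the adjusted p was 0.0292. No other leave-out called HDAC7 in the KO comparison, and no TPM setting did. Over all leave-outs its log2 difference ran from 0.096 to 0.20. With sgRNA_96 alone it was 0.22 (adjusted p = 0.0835 by edgeR and 0.0408 by DESeq2), and with sgRNA_97 alone 0.08 (adjusted p = 0.504). The difference between the guides was -0.13 (95% interval -0.30 to 0.03, adjusted p = 1.00).

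HDAC7 RNA was spread over several kinds of transcript. Those not annotated as protein-coding held 34.3 ± 9.53% of its TPM in SCR1, 45.9 ± 3.42% with sgRNA_96 and 46.1 ± 3.81% with sgRNA_97 (SD, n = 3 each). Protein-coding transcripts with the stop of the representative (MANE) transcript held 58.8 ± 10.8%, 46.6 ± 4.67% and 50.1 ± 5.94%. These shares were not tested. The coding transcript HDAC7-202 held 37.1% of the gene's TPM, with a log2 difference of -0.30 (SE 0.14, adjusted p = 0.548). HDAC7-228, annotated as a target of nonsense-mediated decay, held 25.7%, with 0.53 (SE 0.29, adjusted p = 0.671). HDAC7-201, which carries the 991 codons of the reference protein, held 13.9%, with 0.47 (SE 0.22, adjusted p = 0.571). A single member transcript had a shifted share of its gene in diffSpliceDGE (adjusted p = 0.00537, where 0.158% of 50710 transcripts were called), the retained-intron transcript HDAC7-219, and DESeq2 also called it (adjusted p = 0.00753). It was at 0 TPM in all SCR1 libraries and in 2 KO libraries and between 1.33 and 2.01 TPM in the other 4, and edgeR's transcript test gave it an adjusted p of 0.356. In all, 0 of 47 member transcripts were called by edgeR, 3 had an unadjusted p under 0.05, and DESeq2 called 1.

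HDAC5 (ENSG00000108840.16, chr17:44076746-44123702, minus strand), which carries a closely matching serine window, had 94.8, 87.5 and 90.7 CPM in SCR1. In KO libraries it ran from 72.0 over a median of 83.3 to 91.9 CPM, 3 of 6 below every control and none above. HDAC5 differed by -0.14 on the log2 scale (95% interval -0.28 to 0.00, adjusted p = 0.162). HDAC5 shares 1826 exonic bases with G6PC3 on the opposite strand, a gene at 39.7 TPM, and since no source says if strand was used in counting, their reads may be mixed. HDAC7 likewise shares 963 exonic bases with an antisense lncRNA at 1.07 TPM.

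HDAC4 (ENSG00000068024.18, chr2:239048168-239401654, minus strand), the lowest of the class, had 28.1, 28.3 and 23.9 CPM in SCR1. In KO libraries it ran from 26.3 over a median of 28.03 to 33.3 CPM, with 3 of 6 above every control. HDAC4 differed by 0.11 on the log2 scale (95% interval -0.06 to 0.29, adjusted p = 0.369). Per length it had 5.03 ± 0.06 TPM in SCR1 (n = 3) and 6.14 ± 0.56 TPM in KO libraries (n = 6). There every KO value lay above every control, and the share of all genes for which this held in TPM was not computed. No setting of the KO comparison called HDAC4. Its main coding transcript, HDAC4-215, had 3.05 ± 0.60 and 3.33 ± 0.84 TPM, with overlapping ranges. As shares of the summed class IIa TPM, HDAC9 made up 14.6 ± 1.998% in SCR1 and 10.9 ± 1.32% in KO libraries, and HDAC7 made up 40.5 ± 0.49% and 46.2 ± 3.36% (SD, n = 3 and n = 6). HDAC5 made up 39.7 ± 2.16% and 36.7 ± 3.21%, and HDAC4 5.23 ± 0.47% and 6.23 ± 0.57%. Shares in a fixed total move against each other, and these were not tested.

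To compare the guides with each other, sgRNA_97 was set against sgRNA_96 in all members. By edgeR 0 of 9 were called and 0 had an unadjusted p under 0.05, and DESeq2 also called 0, where 0.0208% of all genes were called. For HDAC9 the log2 difference was -0.10 (95% interval -0.30 to 0.09). The intervals allow differences of up to 0.30 for HDAC7 and HDAC9 and of more than 1.00 for SIK1, so equal action of the guides on the members was not shown.

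The other genes of the pathway were taken as 66 genes in 9 lists, of which 54 passed the filter. Of these, 12 were called in the KO comparison, 8 higher and 4 lower, a share of 22.2% beside the 20.7% of all genes. That share is the background for each list below, and a list held 4 to 12 tested genes. With so few genes, 1 or 2 calls do not set a list apart from it. The 12 genes that were not tested included PRKD1, CAMK4 and NUAK1, and none of them exceeded 0.873 TPM in any library.

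Among other AMPK-related kinases, 2 of 5 tested were called. SNRK, a kinase that LKB1 also activates, had 66.7, 63.6 and 63.7 CPM in SCR1 and 77.6 to 82.4 CPM in KO libraries. These ranges did not overlap, as was so for 20.3% of all genes tested. SNRK rose, with a log2 difference of 0.31 (SE 0.05, adjusted p = 0.000206). MELK, a kinase of proliferating cells that does not need LKB1, was lower, with a log2 difference of -0.22 (adjusted p = 0.0257). Of the other kinases known to phosphorylate class IIa deacetylases, 1 of 5 tested was called. PRKD2, a protein kinase D, went from 37.5 ± 1.82 CPM (n = 3) to 47.2 ± 2.24 CPM (n = 6), a rise of 0.33 on the log2 scale (SE 0.06, adjusted p = 0.000932).

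Of the 14-3-3 genes, whose products hold phosphorylated deacetylases in the cytoplasm, 3 of 6 tested were called lower and none higher, where 10.6% of all genes were called lower. YWHAH had 136, 138 and 130.5 CPM in SCR1 and 109 to 119 CPM in KO libraries, with a log2 difference of -0.27 (SE 0.04, adjusted p = 0.000462). YWHAE had a log2 difference of -0.17 (adjusted p = 0.00840) and YWHAQ of -0.16 (adjusted p = 0.0147), a call that was lost on the TPM scale and without SCR1 replicate 4. The other three that were tested, YWHAB, YWHAG and YWHAZ, had log2 differences of -0.10, -0.11 and -0.06 and were not past the threshold. The median of the 6 genes was -0.13.

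Of the 6 genes for subunits of protein kinase A, the kinase that restrains the SIKs, PRKACB alone was called (log2 difference 0.18, adjusted p = 0.0460). Of the CRTC coactivators and CREB, which SIKs also control, CRTC3 alone of 4 was called (log2 difference 0.18, adjusted p = 0.0364), while CRTC2, CRTC1 and CREB1 had log2 differences of 0.13, 0.01 and 0.08. Of the 12 partners and phosphatases of class IIa deacetylases, ANKRA2, an ankyrin-repeat protein that binds them, was the single gene called (log2 difference 0.45, SE 0.13, adjusted p = 0.0248). HDAC3, the catalytic partner that gives class IIa complexes their deacetylase activity, had a log2 difference of -0.04 (adjusted p = 0.591). Of 6 other histone deacetylases, the class IIb genes HDAC6 (log2 difference 0.22, adjusted p = 0.0213) and HDAC10 (0.32, adjusted p = 0.0163) were called higher.

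Of the MEF2 factors and coactivators, 1 of 6 was called. MEF2A had 156, 171 and 149 CPM in SCR1 and ran from 170.2 over a median of 179 to 187 CPM in KO libraries, with 5 of 6 above every control, a log2 difference of 0.18 (SE 0.05, adjusted p = 0.0169). MEF2C had a log2 difference of -0.12 (adjusted p = 0.0620) and MEF2D of 0.03 (adjusted p = 0.692). Over leave-outs the MEF2C difference stayed below 0, from -0.14 to -0.11. The study, which used DESeq2, reported MEF2C among the genes lowered by the enhancer KO, and also found less of its RNA by RT-qPCR and less protein by Western blot.

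Of the 12 pathway genes called, 4 stayed past the threshold whichever library was left out, namely SNRK, PRKD2, YWHAH and YWHAE. YWHAH was also called in all 8 other settings, and the other three in 7, the exception being log2(TPM + 1) without a filter. The remaining 8 were less stable. YWHAQ was called in 8 of 9 leave-outs, HDAC10, MEF2A, HDAC6 and ANKRA2 in 7, MELK in 6, CRTC3 in 4 and PRKACB in 2, and all 8 lost the call in each of the 3 TPM settings. MEF2A, HDAC6, HDAC10, ANKRA2, MELK and PRKACB lost it with the length offset too. Without SCR1 replicate 1, 5 of the 54 pathway genes were called (9.26%, beside 10.2% of all genes), and without SCR1 replicate 4, 6 were (11.1%, beside 12.3%).

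**Figure D5:**
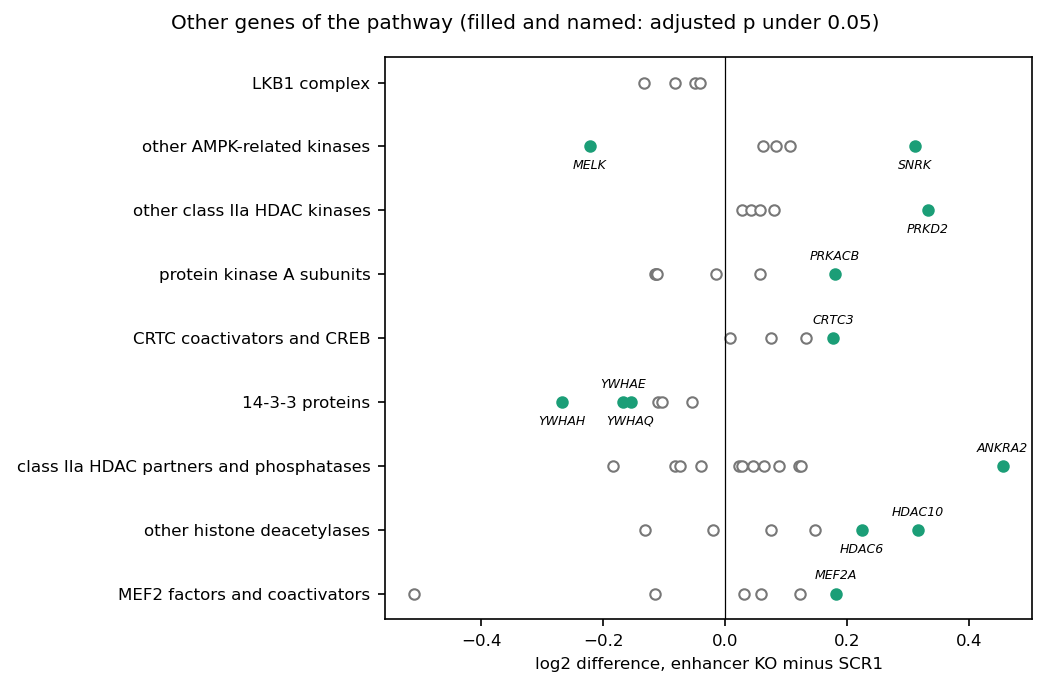
Log2 difference between enhancer KO and SCR1 for each of the 54 pathway genes tested, 1 point per gene in rows by list, filled and named where the adjusted p is under 0.05. Of the filled points 8 lie above 0 and 4 below it, and the 3 among 14-3-3 proteins are all below it.

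To find genes that vary like the members, log2 CPM was correlated over the 9 libraries for the 3 members with the smallest adjusted p, among 10676 genes of at least 5 CPM on average. The 9 points share the split into KO and control libraries, so these values are descriptions. HDAC9 was followed most closely by CLSPN (Pearson r = 0.97), ALG8 (0.96) and ASF1B (0.96), which had KO log2 differences of -0.36, -0.20 and -0.30. HDAC7 was followed by MNT (0.96), MLLT6 (0.95) and INKA1 (0.95), and HDAC5 by RXRA (0.97), KXD1 (0.97) and ETFB (0.96), and none of those 6 genes was past the threshold in the KO comparison.

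Promoter windows of 300 bases from RefSeq (GRCh38.p14) were searched on both strands for letters that bear on the guides and the pathway, and 17 windows matched 8 of the 9 members, HDAC5 being without an entry. The cAMP response element TGACGTCA was in 1.85% of all 35116 windows, the HLF-type letters TTACGTAA in 0.125% and TTATGTAA in 0.886%, and none of these was in a window of a member. The MEF2 consensus was in 2.99% of all windows and, among the members, in 1 of the 5 windows of HDAC9. It is shown because HDAC9 is the member called, with the motif in capitals.
HDAC9 promoter: aagaagtgCTATTTTTAGcaaattct
The stretch is chr7:18086809-18086834 on the plus strand and the motif runs from 18086817 to 18086826, beginning 8 bases before the most upstream HDAC9 start in RefSeq. The nearest annotated starts, 123 and 198 bases after the motif, belong to HDAC9-208 at 0.00614 TPM and HDAC9-233 at 0.240 TPM on average, whereas HDAC9-229 and HDAC9-202 start 408920 bases further along. A match in letters is not a measured binding site, and no occupancy was measured here.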

How the data were processed

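The authors prepared TruSeq mRNA libraries, removed adapters with TrimGalore and used STAR and Salmon 1.10.1 on hg38 for alignment and transcript quantification. They deposited estimated counts per transcript, not normalized, and TPM. All 252835 transcript identifiers matched GENCODE release 44, which gave symbols and coordinates, and the release the authors used was not given in the sources used here. Of the counts, 87.8% were not whole. Counts were summed per gene and rounded. Genes were kept by filterByExpr (minimum count 10) and tested in edgeR 4.0.16 (R 4.3.3) by quasi-likelihood with TMM scaling, Benjamini-Hochberg adjustment over all 14436 genes and a threshold of 0.05. The KO fit had 2 groups, the guide fits 3. Transcripts were tested likewise, with diffSpliceDGE for shares. Alternatives were DESeq2 1.42.0, which the study's methods name, and limma 3.58.1 on log2(TPM + pseudocount). Between replicates of a group the chi-square per degree of freedom was 4.31 to 8.59, so no library duplicated another of its group. Pairs from different groups were not checked in this way.

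The members and lists were chosen with earlier results of these data known. The genes named are all members, the 12 pathway genes of smallest adjusted p, MEF2A, MEF2C, MEF2D and SIK1B, and, for the 3 members of smallest adjusted p, the 3 most correlated genes. Transcripts named hold at least 10% of their gene. HDAC7-219, HDAC9-208, HDAC9-233 and the uncalled pathway genes given with values were named after their values were seen.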

Additional observations from a re-analysis of the deposited data

How the results depend on the processing

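HDAC9 kept its direction in all 17 alternatives of the KO comparison, with log2 differences from -0.54 to -0.36, and stayed past the threshold in 14 of them. It did not on log2(TPM + 1) (adjusted p = 0.0853), log2(TPM + 0.1) (0.0830) or log2(TPM + 1) without a filter (0.181), where 0 members were called in each comparison with SCR1. With the length offset 0 members were called with sgRNA_96 and 0 with sgRNA_97. With DESeq2 or with no filter, 2 members were called with sgRNA_96, HDAC7 being the added gene. Leaving out a library gave 1 to 2 members in the KO comparison, 1 with each guide and 0 between guides. The cause was not tested.

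Counts over all genes moved more. With the length offset, log2(TPM + 1), log2(TPM + 0.1) and log2(TPM + 1) without a filter, the KO comparison called 1524, 1240, 1246 and 648 genes, sgRNA_96 called 662, 448, 451 and 201, and sgRNA_97 called 924, 706, 706 and 311. Between guides these settings called 1, 0, 0 and 1, DESeq2 called 8 and the unfiltered fit 106. Leaving out a library gave 1503 to 3547 genes in the KO comparison, 760 to 2027 for sgRNA_96, 987 to 2501 for sgRNA_97 and 1 to 5 between guides. The lowest KO and sgRNA_97 counts came without SCR1 replicate 1. Leaving out SCR1 replicate 4 gave 1813, 916 and 1243, and leaving out SCR1 replicate 1 gave 774 for sgRNA_96. Without sgRNA_96 replicate 3, sgRNA_96 gave 760, and without sgRNA_97 replicate 3, sgRNA_97 gave 1121.

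Several differences near 0 turned sign, none of them past the threshold. SIK2 became 0.21 with the length offset, 0.17 on log2(TPM + 1), with or without a filter, and 0.20 on log2(TPM + 0.1). MEF2D became -0.026 with the length offset and -0.022 in each TPM setting. MARK2 was -0.0096 with no filter, and over leave-outs it ran from -0.028 to 0.020, STK11 from -0.082 to 0.074 and SIK1 from -0.095 to 0.50. Among member transcripts, DESeq2 and diffSpliceDGE each called 1, HDAC7-219, and leave-outs called 0.

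Libraries with the same replicate number did not vary together. Whether they were handled together is not given in the labels and cannot be read from these correlations. Correlations of same-numbered deviations ran from -0.07 to 0.06, none of 9 pairs was over 0.1, and 1 of 9 libraries correlated best with its own number. With the replicate block, 2936 genes were called in the KO comparison, 1576 with sgRNA_96, 2082 with sgRNA_97 and 1 between guides, and HDAC9 had an adjusted p of 0.00111. PRKACB lost its call under the block (adjusted p = 0.0612).

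SIK1 had the fewest counts, 18 to 41 per library under its own name and 183 to 352 when summed with SIK1B. The other members had at least 378 counts in each library.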
